A study of Mus musculus with 4 samples.

Results

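The genes described here are 4 that mark the fibrocytes of the inner ear: Coch, Otos and Otor, which encode secreted proteins, and Pou3f4, which encodes a transcription factor. They were chosen by gene symbol from the 24346 symbols measured, and all 4 were present and passed the filter on low values, which kept 13200 genes with a mean of at least 1 FPKM over the 4 libraries. FPKM scales the fragments of a gene to the length of its transcript and to the size of the library, so levels of different genes can be set side by side. The study measured gene expression by RNA sequencing in primary cultures from mouse inner ear, with 2 libraries of vestibular cells and 2 of cochlear cells, to compare expression between the parts of the organ that sense head movement and sound. The labels give no strain, age, time in culture or treatment. The vestibular libraries are called V1 and V2 below and the cochlear libraries C1 and C2, as in the sample titles. Values joined by "against" are those of V1 and V2 against those of C1 and C2, in that order. Since no label states that the libraries of a group are separate cultures or animals, each p-value reflects only how far these libraries spread, which may be technical.

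Otic fibrocytes are connective tissue cells that develop from the mesenchyme around the otic epithelium. In the cochlea they fill the spiral ligament and spiral limbus, and in the vestibular organs they lie beneath the sensory epithelia. They hold the matrix of these tissues and carry potassium back towards the endolymph through gap junctions and ion pumps. Cochlin, the product of Coch, is an abundant matrix protein of the inner ear with an LCCL domain and von Willebrand factor A domains, and mutations in its human gene cause hearing loss with vestibular failure. Otospiralin (Otos) is a small secreted protein made by fibrocytes. Otoraplin (Otor) belongs to the MIA family of small secreted proteins. Pou3f4 is a POU homeodomain factor of the otic mesenchyme, and mutations of its human gene cause X-linked deafness.

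FPKM totals ranged from 479380 to 519122 over the 4 libraries. No source used here gives the number of fragments per library, so no counting interval is printed. An exact 0 need not mean silence in these data, since Rpl26, a ribosomal protein gene, is listed at 0 in each library. In 2 libraries the summed level of a marker list stood apart. V2 had a summed FPKM of 102 over 10 epithelial markers, against 1010 in V1 and 1965 and 2339 in the cochlear libraries. Not each of the 10 was lower in V2 than in V1, since Cdh1 had 32.2 FPKM in V1 and 33.9 in V2. C2 had a summed FPKM of 28.8 over 10 macrophage markers, against 6345 to 8298 in the other 3 libraries. Of 8 hair cell markers, Atoh1, Gfi1, Tmc1 and Cdh23 were under 1 FPKM in every library. In bulk cultures such as these, fewer cells of a type and less RNA per cell cannot be told apart.

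All 4 fibrocyte genes reached their highest level in V2. Across all genes tested, that library was the highest of the 4 for 30.1%. Together the 4 genes held 1729 FPKM there, or 0.337% of the library's total, against sums of 244, 258 and 253 FPKM in V1, C1 and C2. The summed level was thus nearly level over the other 3 libraries. Otor was the largest part of that sum in V1 and C2, and Coch in C1.

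**Figure D1:**
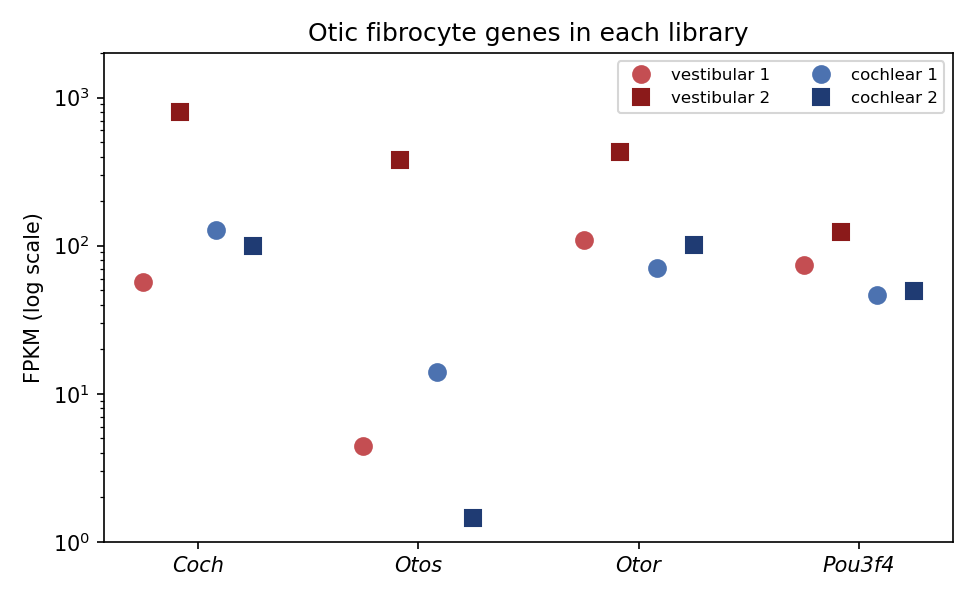
FPKM of Coch, Otos, Otor and Pou3f4 (log axis) in each of the 4 libraries, 1 point per library, with no averaging. The V2 point is the highest for each gene, from 124 FPKM for Pou3f4 to 797 for Coch, and Otos spreads most widely, from 1.45 to 382 FPKM.

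The stretches of DNA before the starts of the 3 secreted protein genes are shown because these genes shared the peak in V2 by the widest margins. The sequences are from RefSeq on GRCm38.p6, 250 bases before each start, 5′ to 3′ on the strand of the gene: chr12:51593091-51593340 on the plus strand for Coch, chr1:92648842-92649091 on the minus strand for Otos and chr2:143078143-143078392 on the plus strand for Otor. Capitals mark matches to CANNTG (the E-box pattern, the same on both strands) and to TATAAA (the TATA box, searched on both strands).
Coch: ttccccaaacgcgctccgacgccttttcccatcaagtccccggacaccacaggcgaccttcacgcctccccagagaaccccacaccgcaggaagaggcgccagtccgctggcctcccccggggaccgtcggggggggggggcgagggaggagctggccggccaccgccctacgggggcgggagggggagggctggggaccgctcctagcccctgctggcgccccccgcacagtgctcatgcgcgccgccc
Otos: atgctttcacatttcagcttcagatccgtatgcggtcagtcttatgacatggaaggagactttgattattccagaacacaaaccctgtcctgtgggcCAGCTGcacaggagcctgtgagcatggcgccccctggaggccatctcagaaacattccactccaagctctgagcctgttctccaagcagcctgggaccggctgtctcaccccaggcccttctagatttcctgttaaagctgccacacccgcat
Otor: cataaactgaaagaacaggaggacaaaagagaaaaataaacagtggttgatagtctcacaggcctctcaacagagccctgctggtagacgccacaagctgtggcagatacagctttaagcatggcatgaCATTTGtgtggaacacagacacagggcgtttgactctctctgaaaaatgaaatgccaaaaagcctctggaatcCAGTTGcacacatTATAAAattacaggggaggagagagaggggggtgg

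The 3 stretches differ in composition. G and C made up 74.8% of the Coch stretch, above 95.8% of the 32851 promoter windows of this length in the table, whose median was 52.4%. They made up 54.0% of the Otos stretch and 46.0% of the Otor stretch. The Otor stretch holds TATAAA 35 bases before the start, a pattern found in 12.4% of all windows, and 2 E-box matches at 121 and 48 bases before it. Otos has an E-box match 153 bases before its start, and Coch has neither pattern in this window. At least 1 CANNTG was found in 66.2% of all windows. The octamer ATGCAAAT, which POU factors are known to bind, and the SOX pattern AACAATG were searched on both strands and matched in none of the 4 genes' windows, with Pou3f4 included. They occur in 1.6% and 3.29% of all windows. No match says only that these letters are not in the window searched. In Pou3f4, 99 of the 250 bases searched lie past the GENCODE start of the gene, within its annotated transcript.

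Coch (ENSMUSG00000020953.17) lies at chr12:51593341-51605771 on the plus strand of GRCm38, and its longest coding transcript has 11 exons and 2681 bases. Its level was 56.5 FPKM in V1, 797 in V2, 127 in C1 and 100 in C2. V1 was the lowest of the 4 and V2 the highest, so the vestibular pair enclosed the cochlear pair. Group means were 427 ± 523 FPKM in vestibular and 113 ± 18.7 FPKM in cochlear libraries (SD, n = 2 each). The log2 difference, vestibular minus cochlear on the log2(FPKM + 1) scale, was 0.91 (SE 1.40, limma adjusted p = 0.746 over all genes tested). Without V2 it turned to -0.98 (SE 0.21, adjusted p = 0.318), and without V1 it was 2.81 (SE 0.21, adjusted p = 0.106). The direction of the Coch difference therefore rested on V2. The exact 2-sided permutation test over libraries gave p = 1.

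The vestibular libraries differed from each other in Coch 14.1-fold, and the cochlear libraries 1.26-fold. Coch was the 58th gene of 13200 by level in V2 and the 1466th in V1. In C1 and C2 it was the 600th and the 751st. The protein-coding genes on either side of it did not share this spread. Strn3, 3861 bases downstream, stood at 29.7, 37.6, 29.9 and 32.9 FPKM in V1, V2, C1 and C2. Scfd1, 143240 bases upstream, stood between 29.9 and 38.1 FPKM.

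Other genes with an LCCL domain were lower than Coch in every library and lay on both sides of the comparison. Vitrin (Vit), the closest relative of Coch in domain layout, had 3.60 FPKM in V1, 9.18 in V2, 0.772 in C1 and 0.144 in C2. Crispld1, which encodes a secreted cysteine-rich protein, had 5.93 and 12.9 against 0.292 and 0.0475 FPKM. In both genes V1 and V2 exceeded C1 and C2, unlike in Coch, against 26.9% of all genes tested. The log2 differences of Vit and Crispld1 were 2.27 (SE 0.51, limma adjusted p = 0.190) and 3.08 (SE 0.42, limma adjusted p = 0.121). The transmembrane genes Dcbld1 and Dcbld2 lay on the other side, with Dcbld2 at 32.8 FPKM in V1, 17.7 in V2, 42.3 in C1 and 49.4 in C2. Dcbld1 had 4.27 and 1.54 against 6.06 and 7.33 FPKM. In both Dcbld genes V1 and V2 lay below C1 and C2, against 28.4% of all genes tested. Crispld2 did not pass the filter. Of the 4 relatives tested 2 had an unadjusted p under 0.05, against 18.2% of all genes tested, and 0 passed the threshold, against 0.0303%. Aggrecanase-1 (Adamts4), a protease known to cut the LCCL domain from cochlin, had 7.58 FPKM in V1, 2.23 in V2, 3.84 in C1 and 4.55 in C2, and its vestibular pair enclosed the cochlear pair in the opposite order to Coch. The related protease gene Adamts5 had 9.59 and 8.98 against 3.67 and 5.71 FPKM (adjusted p = 0.216).

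Otos (ENSMUSG00000044055.5) lies at chr1:92644218-92648841 on the minus strand, and its coding transcript has 5 exons and 704 bases. Its level was 4.43 FPKM in V1, 382 in V2, 14.1 in C1 and 1.45 in C2. V2 stood far above the rest, and V1 lay between the cochlear libraries, so the groups overlapped. The highest value was 262 times the lowest, the widest range of the 4 genes. Within groups, V2 exceeded V1 by 86.1-fold and C1 exceeded C2 by 9.72-fold. Group means were 193 ± 267 and 7.80 ± 8.97 FPKM (SD, n = 2 each). The log2 difference was 2.90 (SE 2.45, limma adjusted p = 0.552), and the exact permutation p was 0.667. Without V2 the log2 difference was -0.17 (SE 1.45, limma adjusted p = 0.965), so the direction rested on that library. Otos was the 172nd gene of 13200 by level in V2, and 8.83% of the genes tested lay below it in C2.

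Otor (ENSMUSG00000027416.2) lies at chr2:143078473-143081713 on the plus strand, with 4 exons and 949 bases in its transcript. The RefSeq start used for the sequence above lies 80 bases before this GENCODE start. Its level was 109 FPKM in V1, 427 in V2, 71.1 in C1 and 101 in C2. V1 and V2 both exceeded C1 and C2, so the groups did not overlap, although V1 exceeded C2 by little. Group means were 268 ± 225 and 86.2 ± 21.4 FPKM (SD, n = 2 each). The log2 difference was 1.34 (SE 0.75, limma adjusted p = 0.415), which did not pass the threshold of 0.05. It was 0.36 (SE 0.29, adjusted p = 0.632) without V2 and 2.32 (SE 0.29, adjusted p = 0.134) without V1. Its exact permutation p was 0.333, the smallest that 2 libraries against 2 can give. Snrpb2, 5620 bases upstream of Otor, stood between 31.0 and 35.2 FPKM in the 4 libraries.

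Mia, the founding member of the MIA family, had 71.2 FPKM in V1, 28.1 in V2, 62.8 in C1 and 208 in C2. It was lowest in V2, where Otor was highest, and its log2 difference was -1.33 (SE 0.80, limma adjusted p = 0.439). The difference between Mia and Otor in their response was not tested. Mia3, the family member that works in export of collagen from the endoplasmic reticulum, stood between 23.8 and 32.5 FPKM in all 4 libraries. Mia2 is listed at 0 in all of them.

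Pou3f4 (ENSMUSG00000056854.4) lies at chrX:110814280-110817207 on the plus strand as a single exon of 2928 bases. Its level was 73.7 FPKM in V1, 124 in V2, 46.4 in C1 and 49.6 in C2. The groups did not overlap, and V1 stood at 1.54 times the cochlear mean. Group means were 98.8 ± 35.5 and 48.0 ± 2.30 FPKM (SD, n = 2 each). The log2 difference was 0.98 (SE 0.29, unadjusted p = 0.0309, limma adjusted p = 0.235), and it did not pass the threshold of 0.05. It was 0.61 (SE 0.11, adjusted p = 0.292) without V2 and 1.35 (SE 0.11, adjusted p = 0.106) without V1. The exact permutation p was 0.333. Pou3f4 had the narrowest range of the 4 genes, 2.67-fold from lowest to highest.

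Of the other POU domain genes Pou3f3 had the highest level, below that of Pou3f4 in every library. Pou3f3, a factor of the same class, had 31.7 FPKM in V1, 56.6 in V2, 25.8 in C1 and 26.4 in C2, and its groups did not overlap (log2 difference 0.68, SE 0.31, limma adjusted p = 0.352). Pou3f1 and Pou3f2, the other members of this class, were at most 0.0659 and 0.121 FPKM in any library. Pou6f1 stood between 12.4 and 15.9 FPKM and Pou2f1 between 3.10 and 4.39. Pou2f2, a lymphoid and myeloid factor, had 6.18, 4.97 and 4.23 FPKM in V1, V2 and C1, and is listed at 0 in C2, the library in which the macrophage markers were low. Of the 13 other POU genes 4 were tested, 3 with a higher vestibular mean and 1 with a higher cochlear mean, and 0 passed the threshold, adjusted or unadjusted. No annotated gene of GENCODE release M21 overlaps Coch, Otos, Otor or Pou3f4 on either strand.

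Over the 4 fibrocyte genes, limma called 0 at an adjusted p under 0.05, and 1 (Pou3f4) had an unadjusted p under 0.05. Over all 13200 genes the call rate was 0.0303% (4 genes, Prss36, Sdr16c5, Snora44 and Tmprss3, each higher in cochlear libraries, and 0 when any of the 4 libraries was left out), and 18.2% had an unadjusted p under 0.05. In 2 of the 4 fibrocyte genes, Otor and Pou3f4, the lower vestibular value exceeded the higher cochlear value. Over all genes tested, 26.9% had this arrangement, 28.4% had the opposite one with cochlear values higher, and 55.3% thus had no overlap in either direction. A count of 2 of 4 is close to this last share and is no result about these genes. The 4 mean differences had the same sign, vestibular higher, which 6788 of the 13200 genes shared.

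**Figure D2:**
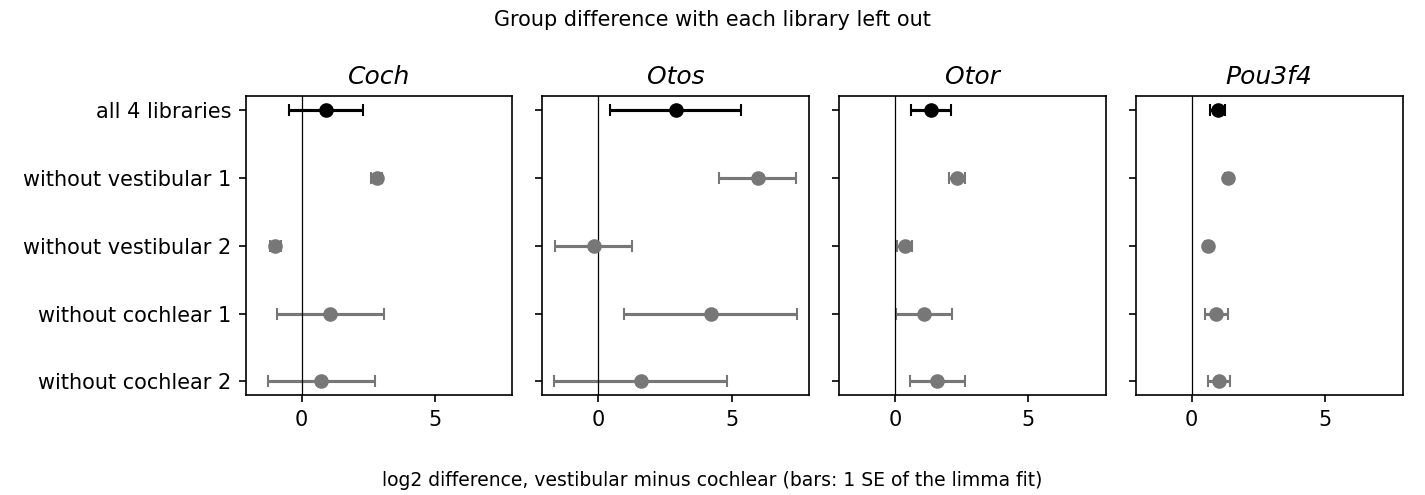
Log2 difference, vestibular minus cochlear, of each gene (1 panel per gene) with all 4 libraries and with each library left out, with bars of 1 SE from limma. Without V2, Coch is at -0.98 and Otos at -0.17, while Otor at 0.36 and Pou3f4 at 0.61 stay above 0.

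In Coch, Otos and Otor, V2 exceeded V1 by more than in nearly all genes tested. On the log2(FPKM + 1) scale V2 exceeded V1 by 6.14 in Otos, 3.79 in Coch, 1.96 in Otor and 0.74 in Pou3f4. The median absolute gap over all genes tested was 0.22. A larger gap in this direction was found in 17 genes for Otos, 30 for Coch, 124 for Otor and 704 for Pou3f4. The cochlear libraries differed less in 3 of the genes. C1 minus C2 was 0.34 in Coch, -0.51 in Otor and -0.10 in Pou3f4, against a median absolute gap of 0.17 over all genes. In size these were larger than in 73.8%, 84.5% and 31.1% of the genes tested. In Otos C1 minus C2 was 2.63, larger in size than in 98.0% of the genes tested. These comparisons are between single libraries and have no replicate of their own.

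**Figure D3:**
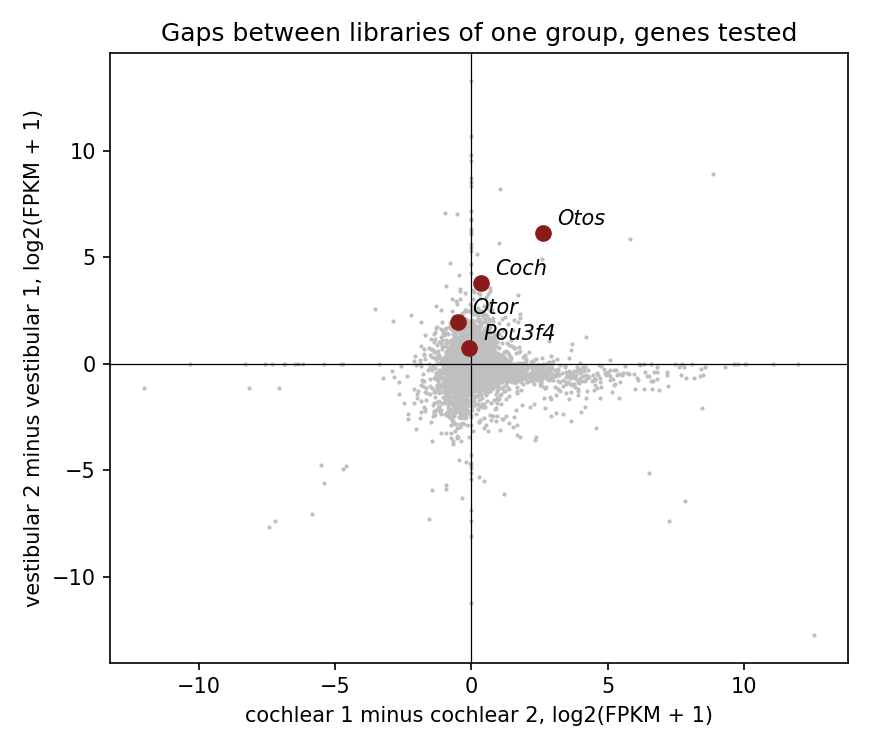
Each point is 1 of the 13200 genes tested, plotted by the gap between the cochlear libraries (horizontal) and between the vestibular libraries (vertical), both in log2(FPKM + 1). Otos lies at 2.63 and 6.14, away from the other 3 genes. These lie from -0.51 to 0.34 on the horizontal axis and from 0.74 to 3.79 on the vertical axis.

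The order of the genes by level changed from library to library. In V1 Otor was the highest, followed by Pou3f4, Coch and Otos. V2 had Coch first, then Otor, Otos and Pou3f4. Coch exceeded Otor 1.86-fold in V2 and 1.78-fold in C1, while it was at 0.517 of Otor in V1 and 0.989 in C2. Over the cochlear pair Coch and Otor overlapped, both lay above Pou3f4 in each library, and Pou3f4 lay above Otos. Over the vestibular pair the ranges of all 4 genes overlapped. Otor kept the steadiest proportion to Pou3f4, from 1.48 to 3.45 over the 4 libraries. The ratio of Otos to Pou3f4 ranged most, from 0.0293 in C2 to 3.08 in V2.

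Matrix genes of fibrocytes, the collagens and proteoglycans in which cochlin lies, had a higher vestibular mean in 11 of 12 genes (median log2 difference 1.99, against 0.01 over all genes tested). Of these genes 3 had an unadjusted p under 0.05 (18.2% of all genes tested did), and 0 passed the threshold (0.0303% of all did). The smallest of these p-values belonged to the gene on the other side, Tgfbi, which encodes a secreted matrix protein and had 95.3 and 126 against 343 and 476 FPKM (log2 difference -1.87, SE 0.25, unadjusted p = 0.00225, limma adjusted p = 0.120). The median of the list, as log2(FPKM + 1), was 6.75 in V1, 9.20 in V2, 6.41 in C1 and 5.91 in C2. Of its 12 genes, 9 were highest in V2, against 30.1% of all genes tested. In 7 of the 12 V1 and V2 both exceeded C1 and C2, and in 1, Tgfbi, both lay below them, against 26.9% and 28.4% of all genes. The type II collagen gene Col2a1, whose protein binds cochlin, stood at 543 and 2365 against 83.9 and 38.5 FPKM (log2 difference 4.29, SE 0.88, limma adjusted p = 0.179). Unlike Coch, it was higher in V1 than in both cochlear libraries. The decorin gene Dcn had 494 and 1542 against 192 and 321 FPKM (adjusted p = 0.287), and Col1a2 had 1140 and 3452 against 492 and 218 FPKM (adjusted p = 0.232). The fibronectin gene Fn1 had 1323 and 595 against 1017 and 521 FPKM and was not highest in V2. The list's median difference was 0.71 without V2 and 3.20 without V1.

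Transport genes of fibrocytes went both ways. Of 11 tested, 7 had a higher vestibular and 4 a higher cochlear mean of log2(FPKM + 1). Gjb2 counts among the 4, although its mean FPKM was 126 in vestibular and 76.1 in cochlear libraries. The median log2 difference was 0.56. An unadjusted p under 0.05 was found in 3 genes, against 18.2% of all genes tested, and 0 passed the threshold, against 0.0303%. The carbonic anhydrase gene Car3, found in fibrocytes of the spiral ligament, had 500 FPKM in V1, 1569 in V2, 234 in C1 and 148 in C2 (log2 difference 2.24, SE 0.66, limma adjusted p = 0.235). The water channel gene Aqp1 had 98.8 and 175 against 93.1 and 85.0 FPKM (adjusted p = 0.422). Atp1b1, a sodium pump subunit gene, lay on the other side, with 389 and 110 against 590 and 792 FPKM (adjusted p = 0.309). It is also active in epithelial cells, whose markers had their lowest summed level in V2, and the part of those cells in its values was not tested. The median difference of the transport list was -0.24 without V2 and 0.97 without V1.

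Regulators of the otic mesenchyme other than Pou3f4 had a higher vestibular mean of log2(FPKM + 1) in 8 of 11 members. The median log2 difference was 0.68, with 0.48 without V2 and 1.08 without V1. Of the 11, 5 had an unadjusted p under 0.05, against 18.2% of all genes tested, and 0 passed the threshold, against 0.0303%. In 6 of them V1 and V2 both exceeded C1 and C2, as in Pou3f4, against 26.9% of all genes tested. In 1, the ephrin receptor gene Epha4, both lay below them, with 4.35 and 10.2 against 11.3 and 10.4 FPKM (log2 difference -0.61, SE 0.41, limma adjusted p = 0.480). Tbx18, a T-box factor of fibrocyte development, was at 16.1 FPKM in V1, 98.0 in V2, 22.9 in C1 and 23.0 in C2. Its vestibular pair enclosed the cochlear pair, as in Coch (log2 difference 0.78, SE 0.94, limma adjusted p = 0.674). Prrx1, a homeobox factor of mesenchyme, was instead highest in V1, with 60.2 and 34.1 against 14.5 and 7.04 FPKM (adjusted p = 0.191). Prrx2 overlapped between groups, at 66.1 and 49.6 against 60.2 and 71.9 FPKM. The forkhead gene Foxc1 had 38.5 and 60.3 against 33.5 and 26.4 FPKM (adjusted p = 0.314).

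Markers of other cell types also moved with V2, and their part in the fibrocyte genes' levels was not tested. Of 10 cartilage markers 8 were found and 4 were tested, 3 of them highest in that library, and the summed level of the list was 23.6 FPKM in V1, 148 in V2, 41.4 in C1 and 31.6 in C2. Ucma, a matrix gene of cartilage, had 2.06 and 92.4 against 11.6 and 1.09 FPKM, the same order of libraries as Otos. Sox9, the factor that directs cartilage formation, did not stand apart, with 17.4, 29.4, 28.7 and 29.5 FPKM in V1, V2, C1 and C2. The cartilage genes Matn1, Matn3, Comp and Hapln1 were under 1 FPKM in every library. Melanocyte markers were highest in V2 in 5 of 6, with a summed level of 9.94 FPKM in V1, 227 in V2, 8.06 in C1 and 4.76 in C2. The pigment enzyme gene Dct had 0.560 and 166 FPKM in V1 and V2 and is listed at 0 in both cochlear ones, and Mlana had 25.3 FPKM in V2 and at most 0.713 in the other 3.

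Epithelial and macrophage markers had other orders of libraries. For the counts below, 18.2% of all genes tested had an unadjusted p under 0.05 and 0.0303% were called. The 10 epithelial markers had a lower vestibular mean in 10 of 10 (median log2 difference -2.25, -1.23 without V2 and -3.41 without V1; 4 with an unadjusted p under 0.05, 0 called), and the lowest summed level was in V2, where the fibrocyte genes were highest. The keratin gene Krt8 had 297 FPKM in V1, 10.5 in V2, 663 in C1 and 687 in C2, and its partner Krt18 had 305 and 11.6 against 628 and 719. Cdh1 did not fall from V1 to V2, with 32.2 and 33.9 against 122 and 146 FPKM (log2 difference -1.98, SE 0.14, limma adjusted p = 0.0665). The 10 macrophage markers had a higher vestibular mean in 10 of 10 (median log2 difference 3.99, 0.01 without C2 and 7.62 without C1; 0 called, 0 with an unadjusted p under 0.05). They were low in C2, with Lyz2 at 10.3 FPKM there and 3902 to 5103 in the other 3, and C1qc at 0.853 against 460 to 720. In that library Coch, Otor and Pou3f4 stayed within 1.43-fold of C1, while Otos was at its lowest, 9.72-fold below C1. The part of the macrophages in these values was not tested.

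**Figure D4:**
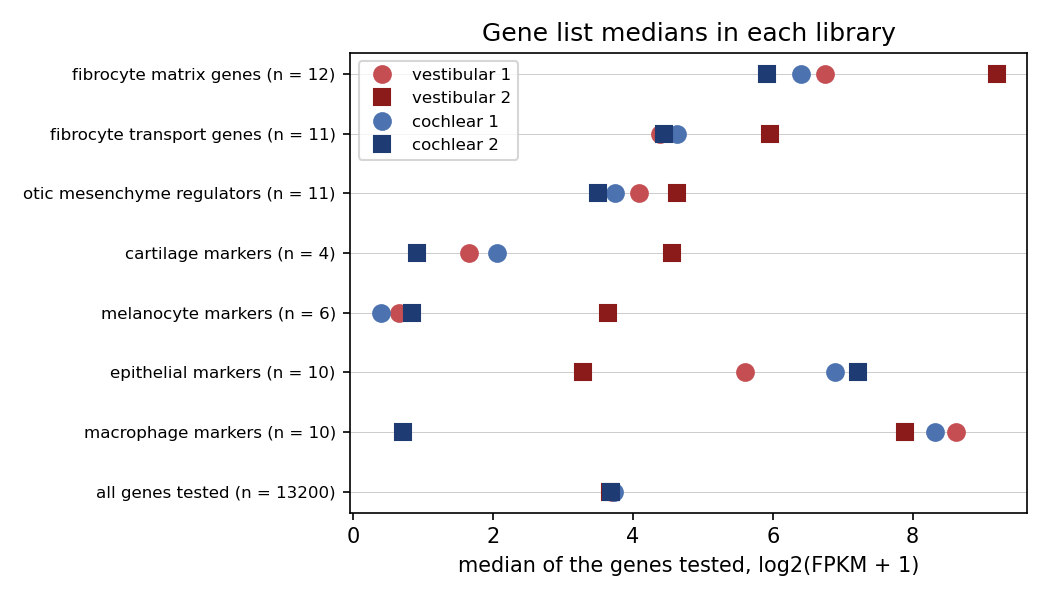
Median level, in log2(FPKM + 1), of the genes tested in 7 lists and of all 13200 genes, 1 point per library. V2 has the highest median for the fibrocyte matrix (9.20), transport (5.96), mesenchyme (4.63), cartilage (4.56) and melanocyte (3.65) lists and the lowest for epithelial markers (3.28), while C2 is the lowest for macrophage markers (0.71).

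The genes with the most similar pattern were found by the Euclidean distance, over the 4 libraries, between log2(FPKM + 1) profiles centred on their own means, among 12360 genes. For Coch they were Igf2 (distance 0.60), Lama1 (0.65), Gjb6 (0.67), Pmel (0.74) and Frzb (0.81). Lama1, at 1.08 and 19.4 against 1.97 and 0.969 FPKM, and Pmel, at 0.599 and 16.3 against 0.768 and 1.36, were low outside V2. There the added 1 weighs on the profile. The growth factor gene Igf2 had 37.1 FPKM in V1, 369 in V2, 97.3 in C1 and 77.6 in C2, the order that Coch has. Gjb6, the connexin 30 gene of the fibrocyte gap junction network, had 2.32 and 39.8 against 3.45 and 2.42 FPKM. The WNT antagonist gene Frzb had 4.98 and 52.2 against 17.0 and 11.3 FPKM. For Otos they were Ucma (1.46), Dct (2.21), Col9a3 (2.30), S100b (2.40) and Aldh3a1 (2.61). The nearest gene to Otos thus lay farther from it than the fifth nearest to Coch. Col9a3, a type IX collagen gene, had 33.7 and 663 against 21.6 and 21.9 FPKM, and S100b, a calcium-binding protein gene, had 14.2 and 178 against 4.32 and 2.36.

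For Otor the nearest were Spink8 (0.28), Wisp1 (0.30), Mkx (0.32), Rnf152 (0.33) and Ninj2 (0.34). Spink8 had low values, at 0.445 and 4.60 against 0.196 and 0.383 FPKM, where the pseudocount of 1 weighs on the profile. Wisp1, a matricellular protein gene, had 20.6 FPKM in V1, 66.2 in V2, 13.8 in C1 and 19.1 in C2, and the tendon factor gene Mkx had 2.13 and 11.6 against 1.57 and 1.72. For Pou3f4 they were Otogl (0.08), Prnp (0.09), Fstl1 (0.11), Fez1 (0.11) and Ppic (0.12). Otogl too had low values, at 0.958 and 2.53 against 0.286 and 0.413 FPKM, where the pseudocount weighs on the profile. The prion protein gene Prnp had 115 and 179 against 68.8 and 72.1 FPKM, and Fstl1, a secreted glycoprotein gene, had 397 and 701 against 239 and 265. None of the 4 fibrocyte genes was among the nearest 5 of another. The closest pair was Otor and Pou3f4 (distance 0.98, with 175 genes nearer to Otor and 3187 nearer to Pou3f4), and Otos and Pou3f4 were the farthest apart (4.69). With a pseudocount of 0.1 in place of 1, 3 of the 5 genes were shared for Coch, 1 for Otos, 1 for Otor and 3 for Pou3f4. Among genes with a mean of at least 5 FPKM, 4 were shared for Coch, 5 for Otos, 1 for Otor and 4 for Pou3f4. Likeness over 4 libraries is a description and was given no test.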

How the data were processed

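Per the labels' protocols, TRIzol was used for RNA extraction and a stranded TruSeq kit for the mRNA libraries. The authors deposited 1 table per library of FPKM by gene symbol, per the file headers. The submitters' processing notes list Cuffdiff 2.2.1, TopHat2 2.1.1, Bowtie2 2.2.8 and SAMtools 0.1.18 with the mm10 build. No source used here gives their settings, the annotation, the strand setting or the scaling between libraries. FPKM depends on the transcript model and library size, and depth cannot be read from it here.

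Groups came from the cell type label. Genes averaging at least 1 FPKM were kept, and log2(FPKM + 1) was compared with limma 3.58.1 in R 4.3.3 (eBayes with a mean-variance trend, 2-sided, Benjamini-Hochberg over 13200 genes, threshold 0.05). A fold on this scale understates the difference of low genes. The fit was also run on simulated data with independent noise, which lack the shifts in marker levels between libraries described above. Exact permutation tests ran over libraries. The members and gene lists were chosen with earlier results of these data known, so the lists are described by counts and medians with no test. A higher mean in these counts refers to the mean of log2(FPKM + 1), which can differ in order from the mean FPKM. The text names the 4 members; every tested gene of a list with up to 6 of them, otherwise the 4 highest by mean FPKM; of each marker list of another cell type, the 2 highest and markers under 1 FPKM throughout; the 5 genes with the nearest profile per member; the 4 called genes; and, added after their values were seen, neighbouring genes, untested list members, Tgfbi, Epha4 and genes used to describe the libraries. Positions are from GENCODE M21 on GRCm38 (the assembly of mm10), and promoter windows from RefSeq, matched by symbol for 4 of 4 members. Some genes that this rule names are not reported here. Protein sequences planned for comparison were not used here. A total of 12 alternatives were run.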

Additional observations from a re-analysis of the deposited data

How the results depend on the processing

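With 2 libraries a group, the fits with a library left out or with the replicate block have less left to estimate the spread from. Calls lost in them therefore cannot show that a call rested on a single library. The count of called genes, 4 as reported, was 2 with no filter on low values, 0 with the replicate block and 0 with any of the 4 libraries left out, and 3 to 5 under the other 6 alternatives. Where limma called 0, 1887 genes (replicate block) and 1018 to 2724 genes (libraries left out) had an unadjusted p under 0.05. Of the 4 fibrocyte genes, none passed the threshold under any of the 12 alternatives, and the smallest adjusted p of each was 0.106 (Coch), 0.212 (Otos), 0.134 (Otor) and 0.106 (Pou3f4). Without V2 the log2 difference reversed to -0.98 in Coch and -0.17 in Otos; otherwise each of the 4 genes kept its direction. With each library left out, Coch ranged from -0.98 to 2.81, Otos from -0.17 to 5.97, Otor from 0.36 to 2.32 and Pou3f4 from 0.61 to 1.35. In these fits the lone library of a group is assumed to vary like the other group. Under the other alternatives Coch stayed within 0.86 to 0.96, Otos within 2.44 to 3.14, Otor within 1.29 to 1.37 and Pou3f4 within 0.93 to 0.99. The labels number the libraries 1 and 2 but name no pairing, and same-numbered libraries did not deviate together (r = 0.0432 across 13200 genes, which are not independent replicates). With the replicate block the smallest adjusted p over all genes was 0.254. List medians kept their sign in 204 of 216 fits, and 8 of 18 lists changed sign at least once, the fibrocyte transport, cartilage and melanocyte lists without V2. The LCCL domain list turned from 0.69 to -0.89 with a mean of at least 5 FPKM, where fewer of its genes were kept. The unknown number of fragments limits what can be said of values near 1 FPKM, such as Otos in C2.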

Other observations

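The remaining marker lists are given here as values. Beside their counts, 18.2% of all genes tested had an unadjusted p under 0.05 and 0.0303% were called. Pericyte and smooth muscle markers had a higher vestibular mean in 5 of 5 tested (median log2 difference 1.22, 3 with an unadjusted p under 0.05, 0 called), with the actin-binding gene Tagln at 149 FPKM in V1, 192 in V2, 74.3 in C1 and 70.3 in C2, and Pdgfrb at 91.8 and 105 against 68.6 and 69.8. Both were above the cochlear libraries in each vestibular library, as Pou3f4 was. Myh11 was under 1 FPKM throughout. Meningeal markers had a higher vestibular mean in 3 of 4 (median 1.20, 0.27 without V2 and 2.13 without V1; 1 with an unadjusted p under 0.05, 0 called). Ptgds, a prostaglandin synthase gene, stood like Coch highest in V2, with 443 and 3402 FPKM against 94.2 and 140, while Slc6a13 was under 1 FPKM throughout and Slc22a6 is listed at 0 in all libraries. Bone markers had a higher vestibular mean in 3 of 4 (median 1.19, 3 with an unadjusted p under 0.05, 0 called), where Dmp1 had 171 and 80.6 FPKM against 15.0 and 15.0, whereas Alpl had 4.20 and 3.05 FPKM against 11.4 and 91.7, and Sp7 was under 1 FPKM throughout. Alpl is in the meningeal list as well, where it was the tested gene with a higher cochlear mean.

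Of 4 Schwann cell markers tested 2 lay each way (median -0.36, and -0.61 to -0.18 with 1 library left out; 3 with an unadjusted p under 0.05, 0 called). Sox10 had 37.7 FPKM in V1, 15.5 in V2, 108 in C1 and 100 in C2, Pmp22 121 and 167 against 97.5 and 48.1, and Foxd3 was under 1 FPKM throughout. Endothelial markers split 2 and 1 (median 0.17, 0.69 without V2, 0.44 without C2, -0.68 without V1 and -0.11 without C1; 1 with an unadjusted p under 0.05, 0 called), with Cdh5 at 0.915 and 10.7 against 0.293 and 0.0955 FPKM, Emcn at 14.5 and 34.3 against 112 and 287, Pecam1 and Tie1 under 1 FPKM throughout and Cldn5 listed at 0. Hair cell markers split 1 and 1 (median -0.36, and -0.58 to -0.15 with 1 library left out; 1 with an unadjusted p under 0.05, 0 called), with Myo7a at 13.4 and 8.93 against 9.83 and 5.81 FPKM and Pcdh15 at 0.221 and 0.265 against 2.07 and 1.67. Supporting cell markers split 2 and 3 by their means of log2(FPKM + 1), with 3 at an unadjusted p under 0.05 and 0 called. Their median difference was -0.15, with -1.88 without V2 and 0.27 without V1. Among them Otoa had 9.40 and 3.61 against 29.0 and 129 FPKM, Gjb2, which fibrocytes also use, 19.9 and 231 against 77.7 and 74.5, the order of libraries that Coch has, and Prox1 was under 1 FPKM throughout.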
